A study of Mus musculus with 12 samples.

Results

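The nuclear genes of the mitochondrial respiratory chain were measured by RNA sequencing in 4 groups of sorted mouse T cells, with 3 libraries in each group. A row of the count table was a member when its symbol began with Nduf, Uqc, Cox4 to Cox8 or Atp5, or was Sdha, Sdhb, Sdhc or Sdhd. This gave 102 of 48663 gene rows: 39 of complex I, 7 Ndufaf assembly factors, 4 of complex II, 13 of complex III, 18 of complex IV and 21 of complex V. Of these, 7 carry pseudogene symbols ending in -ps, with or without a number, and they are included in the counts below unless stated otherwise. All groups were on the C57BL/6 background and all carried lrf fl/fl alleles. Lrf, listed as Zbtb7a, encodes a zinc finger transcription factor. The groups were CD8αα splenocytes from Cd4 Cre+ lrf fl/fl mice (KO spleen cells), CD8αα intraepithelial lymphocytes from Cd4 Cre- lrf fl/fl mice (control IELs), thymic IEL precursors from Cd4 Cre+ lrf fl/fl mice (KO IELp), and thymic IEL precursors from Cd4 Cre- lrf fl/fl mice (control IELp). CD8αα cells were sorted for CD45, TCRβ and CD8α and against CD4 and CD8β. IELp were sorted for TCRβ, CD122, H-2Kb and high CD5 and PD-1, and against CD4, CD8α and CD44. The sources used here give neither ages nor how many mice stand behind a library. The Cre is driven by Cd4 regulatory sequences, which act in developing T cells.

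The respiratory chain passes electrons from NADH (complex I) and succinate (complex II) to ubiquinone, from there through complex III to cytochrome c, and through complex IV to oxygen. Complexes I, III and IV pump protons across the inner mitochondrial membrane, and complex V, the ATP synthase, uses the return flow to make ATP. The members measured here are encoded in the nucleus, while the mitochondrial genome encodes the most hydrophobic subunits of every complex except complex II. T cells depend on this machinery for energy and for the redox balance that growth requires.

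Gene counts per library ranged between 13432598 and 19947734. Zbtb7a, on mm10 chromosome 10 (chr10:81135220-81152995, plus strand), stood at 50.8, 43.8 and 42 CPM (gene counts scaled to a total of 1000000 per library, without TMM factors) in KO IELp against 77, 68.5 and 80.7 in control IELp, and at 61.4, 59.1 and 63.4 in KO spleen cells against 114, 119 and 101 in control IELs. It was lower in every KO library than in every control library of its comparison, and it was still counted in every KO library. Cd3e was present in all libraries. Cd8a, which the sort selects for in CD8αα cells and against in IELp, stood at 838 ± 48.7 CPM in KO spleen cells, 2508 ± 158 in control IELs, 46.5 ± 3.06 in KO IELp and 18.7 ± 1.36 in control IELp (SD, n = 3), and was higher in KO IELp than in control IELp, with a log2 fold change of 1.34 (SE 0.10, edgeR adjusted p = 6.28e-07). Itgae, a marker of gut IELs, stood at 3775 ± 81.1 CPM in control IELs against 48.9 ± 3.85 in control IELp (SD, n = 3). KO spleen cells and control IELs differ in tissue as well as genotype, and these effects cannot be told apart. The IELp and CD8αα libraries were numbered in separate sets by the submitters, so differences in their handling cannot be told apart from cell type. Nothing in the labels says whether replicates came from separate mice, so p-values measure the spread between these libraries, which may be technical. In such bulk samples fewer cells of a type and less RNA per cell cannot be told apart. Reads that mapped to several places were not counted and made up between 13.1% and 18.8% of each library, with the lowest shares in control IELs. With these included, reads assigned to no gene made up between 58.8% and 61.0% of each library.

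Promoter sequence was available from RefSeq (GRCm38.p6) for 76 of the 102 members, as 250 bases before to 50 bases after the gene start. Motifs of 3 factors known to act at such promoters were searched on both strands. GCATGCGC, part of the recognition sequence of NRF1, was in the window of 12 of 76 members (15.8%) and of 3.05% of all 27025 genes with a window. CCGGAAG, the ETS-type core bound by GABPA, was in 17 of 76 (22.4%) against 9.93% of all genes. AAGATGGC, a YY1-type motif, was in 10 of 76 (13.2%) against 3.19%. The TATA box letters TATAAA were in 7 of 76 (9.21%) against 15.7%. Some motifs can overlap each other, and a match describes letters only. Among the 76, 51 fell in control IELs set against control IELp (adjusted p under 0.05). NRF1-type letters were in 8 of these 51 (15.7%) and in 4 of the other 25 (16%). The ETS-type core was in 25.5% and 16%, the YY1-type motif in 15.7% and 8%, and TATAAA in 3.92% and 20%. The other 25 include members that were not tested. Among these are Cox7b2 and Cox8b, which hold TATAAA and had no counts in any library. A link between motifs and transcript levels was not tested. The 200 bases before the start of 3 members described below are shown as examples that differ in these motifs. Capitals mark matches to any of the 4 motifs. Uqcrh holds an ETS-type core on the reverse strand, Ndufaf4 holds 1 palindromic stretch in which the NRF1-type letters match once on each strand, and the window of Cox6b2 holds none of the 4 motifs.
Uqcrh (chr4:116075071-116075270, minus strand): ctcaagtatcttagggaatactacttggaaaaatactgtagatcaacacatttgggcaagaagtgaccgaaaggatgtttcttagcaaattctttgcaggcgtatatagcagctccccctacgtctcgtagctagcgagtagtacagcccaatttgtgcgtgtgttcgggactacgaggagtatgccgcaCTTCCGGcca
Ndufaf4 (chr4:24897883-24898082, plus strand): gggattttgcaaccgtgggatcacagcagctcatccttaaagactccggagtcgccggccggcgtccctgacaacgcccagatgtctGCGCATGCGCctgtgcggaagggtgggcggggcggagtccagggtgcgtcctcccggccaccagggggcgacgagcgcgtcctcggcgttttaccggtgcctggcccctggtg
Cox6b2 (chr7:4753095-4753294, minus strand): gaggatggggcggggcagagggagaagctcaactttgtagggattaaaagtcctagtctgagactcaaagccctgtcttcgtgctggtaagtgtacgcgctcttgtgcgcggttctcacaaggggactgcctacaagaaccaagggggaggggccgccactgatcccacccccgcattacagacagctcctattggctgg

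Control IELs had the smallest share of respiratory chain transcripts. All 102 members together took 0.907%, 0.894% and 0.877% of gene counts in KO spleen cells, 0.689%, 0.669% and 0.738% in control IELs, 1.03%, 1.01% and 0.982% in KO IELp, and 1.01%, 1.08% and 1.13% in control IELp. The control IEL libraries were below all others, the KO spleen libraries were next, and the 2 IELp groups overlapped. Complex V took the largest part, with 0.337 ± 0.00880% in KO spleen cells, 0.238 ± 0.00764% in control IELs, 0.390 ± 0.00935% in KO IELp and 0.411 ± 0.0152% in control IELp (SD, n = 3). Of the 5 complexes, complex II had the most even share: 0.0947 ± 0.00215%, 0.0876 ± 0.00505%, 0.0977 ± 0.00107% and 0.103 ± 0.00358% in the same order of groups. Of the 91 members with enough counts to test in the 12 libraries, 75 had their lowest mean CPM in control IELs and 67 had their highest in control IELp. The 13 protein-coding genes of the mitochondrial genome took 0.609 ± 0.0524% in KO spleen cells, 0.274 ± 0.0137% in control IELs, 0.427 ± 0.0530% in KO IELp and 0.469 ± 0.0274% in control IELp.

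**Figure D1:**
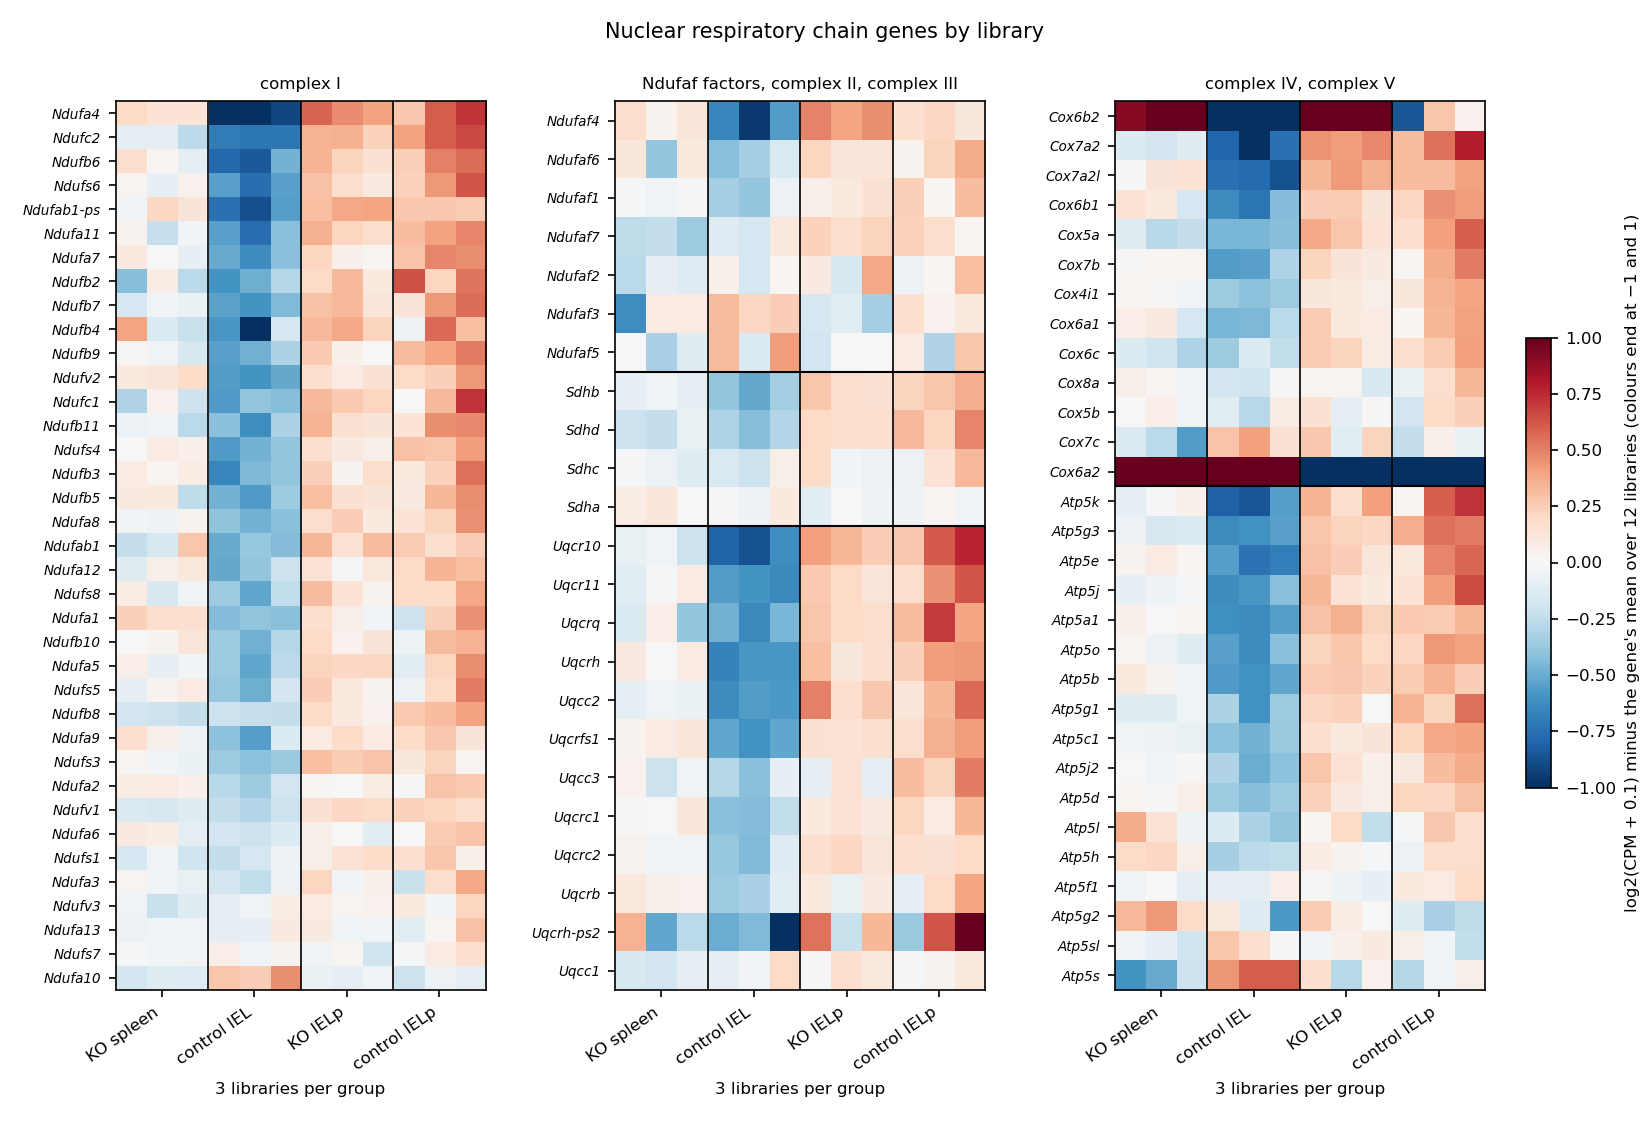
Level of 90 of the 91 tested members (rows, by complex) in the 12 libraries (columns, 3 per group), as log2(CPM + 0.1) minus the gene's mean over the 12 libraries; colours end at -1 and 1. Most rows are blue in control IELs, with Ndufa10, Atp5s, Cox7c and Cox6a2 among the exceptions, and Cox6b2 is red in KO spleen cells and KO IELp.

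In control IELs set against control IELp, most respiratory chain genes were lower in complexes I, III, IV and V. Of 90 members tested, 58 were lower and 7 higher (edgeR quasi-likelihood test, adjusted p under 0.05 by Benjamini-Hochberg over all genes), while of all genes tested 32.9% were lower and 31.9% higher. The median log2 fold change of the members was -0.42, beside -0.01 over all 14878 genes tested. By complex, 26 of 38 members fell in complex I, 2 of 4 in complex II, 9 of 11 in complex III, 9 of 13 in complex IV and 11 of 17 in complex V, and 1 of 7 Ndufaf factors. The 7 that rose were Cox6a2, Atp5s, Ndufa10, Cox7c, Atp5sl, Ndufaf3 and Sdha. On the authors' CPM values without TMM scaling, limma called 70 members lower and 3 higher, beside 44.0% lower and 23.4% higher over all genes tested. There the median of all genes shifted to -0.21 and 34.7% of called genes were higher, against 49.2% with TMM. Control IELs also differed from control IELp in markers of other cells: the summed level of 13 gut epithelial markers was between 505 and 685 CPM in control IELs, with Lgr5 and Muc2 at 0, against 60.3 to 69.5 CPM in control IELp. Within the epithelial list Epcam stood at 123, 127 and 189 CPM in control IELs and 57.7, 61.3 and 67 in control IELp. Krt8 (1.35, 1.54 and 22.6 CPM) and Fabp1 (2.33, 1.8 and 12.7 CPM) were highest in control IEL replicate 3. The summed level of 9 early-response genes was between 5257 and 5455 CPM in control IELs against 1249.6 to 1469 CPM in control IELp. The summed level of 12 myeloid markers was between 415 and 533 CPM in control IELs, where Adgre1, C1qa, C1qb, Cd14, S100a8 and S100a9 were at 0, against 26.4 to 32.9 CPM in control IELp. Within the myeloid list Itgam averaged 29.3 CPM in control IELs and 0.631 in control IELp, and Lyz2 averaged 0.0724 and 0.438. The part of these lists in the result was not tested.

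In KO spleen cells set against control IELs, members were more often higher than lower. Of 90 members tested, 45 were higher and 11 lower, while of all genes tested 29.1% were higher and 29.2% lower. The members' median log2 fold change was 0.26, beside 0.00 over all genes. The higher ones were 19 of 38 in complex I, 1 of 4 in complex II, 6 of 11 in complex III, 7 of 13 in complex IV and 11 of 17 in complex V. Of the 7 Ndufaf factors, 3 fell and 1, Ndufaf4, rose. This comparison shares the control IEL libraries with the one above. The summed level of 13 gut epithelial markers was between 9.75 and 14.8 CPM in KO spleen cells against 505 to 685 CPM in control IELs, and that of 7 B cell markers was between 1311 and 1372 CPM in KO spleen cells against 463 to 659.9 CPM in control IELs, where Ms4a1 and Pax5 were at 0. Within the epithelial list Epcam averaged 10.3 CPM in KO spleen cells and 146 in control IELs. Early-response genes summed to between 554 and 584 CPM in KO spleen cells against 5257 to 5455 CPM in control IELs, and myeloid markers to between 129 and 165 CPM against 415 to 533 CPM. The part of these 4 lists in the result was not tested. The count of lower members was 6 without control IEL replicate 1, control IEL replicate 3 or KO spleen replicate 3, and 7 without KO spleen replicate 2. Limma on unscaled CPM called 55 members higher and 4 lower, with 59.4% of all called genes higher against 49.9% with TMM and a median over all genes of 0.11. Of all genes tested it called 36.0% higher and 24.5% lower.

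Few members differed between KO IELp and control IELp. Of 91 members tested, 2 were higher (Cox6b2 and Ndufaf4) and 4 lower (Ndufa7, Ndufb9, Atp5g3 and Atp5c1), while of all genes tested 6.48% were higher and 6.58% lower. Both shares of members, 2.20% and 4.40%, were below those backgrounds, and the median was -0.09, with 72 members below 0 and 19 above. The median depended on single libraries: leaving out replicate 1 of KO IELp gave -0.14 and replicate 3 of KO IELp gave -0.06, while leaving out replicate 1 of control IELp gave -0.17 and replicate 3 of control IELp gave -0.01. The 4 lower calls rest on small differences, between -0.30 and -0.18. Without control IELp replicate 1 there were 9 lower calls, beside 5.58% of all genes, so the members' share was above the background there. Without control IELp replicate 3 there was 1, beside 6.25% of all genes. Without control IELp replicate 2, KO IELp replicate 2 or KO IELp replicate 3 there was 0, beside 4.27% to 4.35% of all genes. Cox6b2 was called with every one of the 15 alternatives run on this comparison.

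In KO spleen cells set against KO IELp, few members moved. Of 91 tested, 4 were higher (Cox6a2, Sdha, Atp5h and Ndufa1) and 15 lower, while of all genes tested 22.6% were higher and 22.4% lower. The members' shares, 4.40% and 16.5%, were below those backgrounds, and their median was -0.08 on the log2 scale. Limma on unscaled CPM called 2 members higher and 35 lower, with 35.7% of all called genes higher against 50.3% with TMM and a median of -0.18 over the members and of -0.10 over all genes. Of all genes tested it called 17.3% higher and 31.1% lower, so the members' share of lower calls was above the background there. Without KO IELp replicate 2 or 3 the higher calls numbered 2.

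The step from IELp to CD8αα cells was also compared between genotypes, as the difference between the KO step (KO spleen cells over KO IELp) and the control step (control IELs over control IELp) in 1 fit of all 12 libraries. At an adjusted p under 0.05 the difference was positive for 45 of 91 members and negative for 7. Of all genes tested, 24.2% were called positive and 22.5% negative. Whether called or not, the difference was above 0 for 74 members and below 0 for 17. Its median over the members was 0.37, beside 0.02 over all genes. With an offset for transcript length this median was 0.24, and 33 members were called positive and 5 negative. Of all genes tested, 24.5% were then called positive and 22.0% negative. Without the offset, the difference was positive for all 5 genes of the F1 head of complex V. The KO step ends in spleen and the control step in gut, so genotype and tissue cannot be told apart here either. Limma on unscaled CPM called 56 members positive and 4 negative, beside 30.4% positive and 19.1% negative over all genes tested. With it, 61.4% of all called genes were positive against 51.8% with TMM. Its median over all genes was 0.13.

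**Figure D2:**
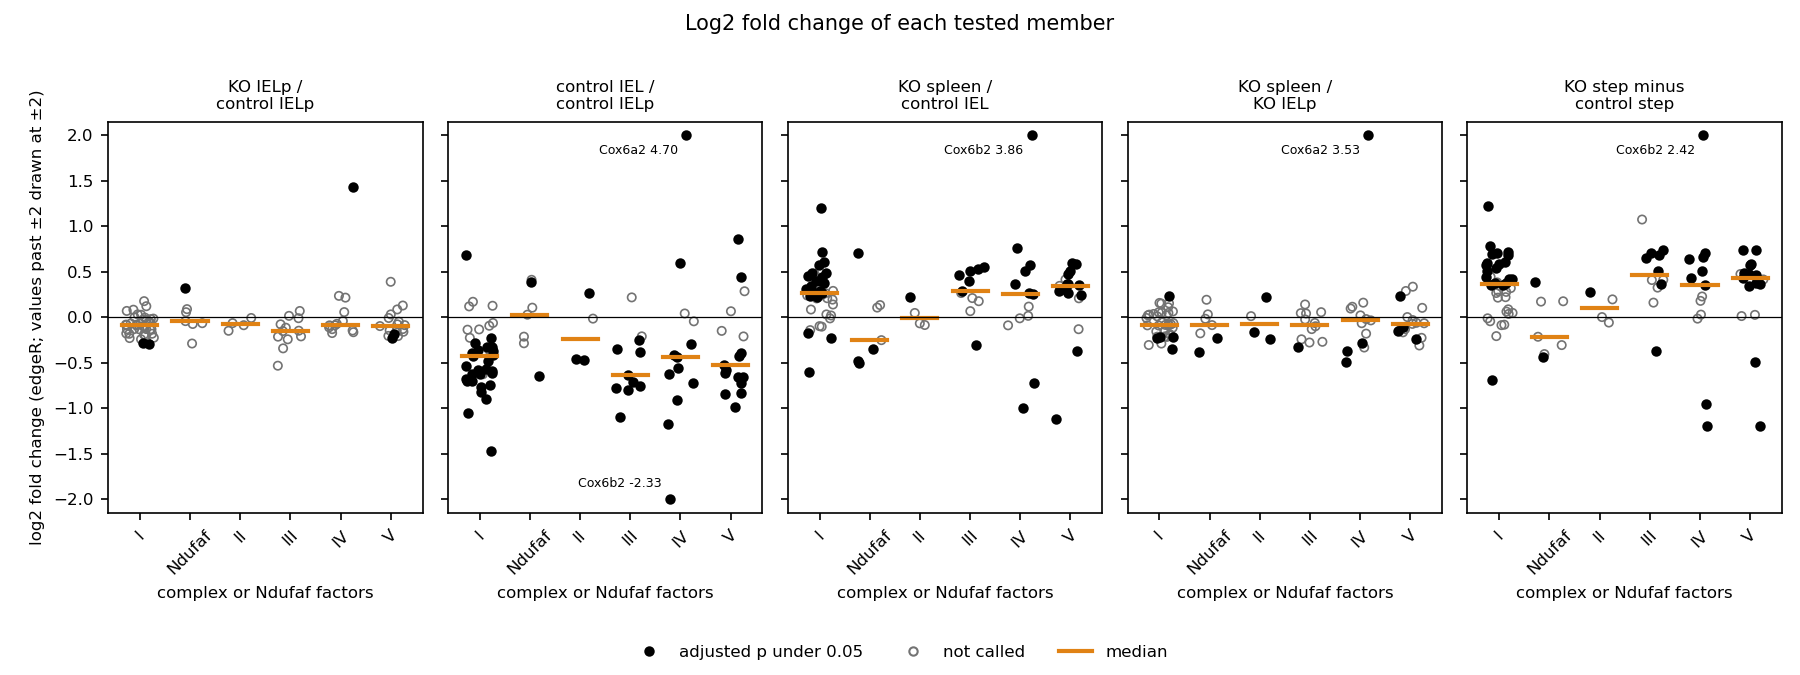
Log2 fold change (y axis, edgeR) of each tested member by complex (x axis) in the 4 comparisons of groups and in the difference between the KO and the control step. Filled points passed an adjusted p of 0.05, open points did not, bars are medians, and values past ±2 are drawn at ±2. The medians of complexes I, III, IV and V lie below 0 for control IELs over control IELp and above 0 for KO spleen cells over control IELs.

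Complex I couples NADH oxidation to proton pumping. Its 7 nuclear core subunits, which carry the flavin, the iron-sulfur clusters and the quinone site, had a median log2 fold change of -0.22 in control IELs against control IELp, and 4 of 7 were lower. Of the other complex I rows 22 of 31 were lower, with a median of -0.54, and the difference between these lists was not tested. Ndufs1, the largest core subunit, stood at 164, 179.8 and 161 CPM in KO spleen cells, 157, 163 and 177 in control IELs, 192, 204 and 209.7 in KO IELp and 207, 223 and 191 in control IELp. Its control IEL libraries were all below its control IELp libraries, and the log2 fold change was -0.09 (SE 0.08, edgeR adjusted p = 0.312). Ndufv2, a core subunit with an iron-sulfur cluster, stood at 106, 107 and 112 CPM in KO spleen cells, 67.2, 65.2 and 69.3 in control IELs, 111, 105 and 110.0 in KO IELp and 113, 117 and 134 in control IELp. The control IEL libraries were the lowest, apart from all other groups. Its log2 fold change was -0.62 (SE 0.09, edgeR adjusted p = 8.2e-05) for control IELs over control IELp and 0.57 (SE 0.07, edgeR adjusted p = 6.13e-05) for KO spleen cells over control IELs. Ndufv1, which binds NADH and flavin, stood at 120.0, 119 and 122 CPM in KO spleen cells, 112, 108 and 114 in control IELs, 147, 152 and 151 in KO IELp and 155, 153 and 149 in control IELp. Both CD8αα groups were below both IELp groups, with log2 fold changes of -0.21 (SE 0.05, edgeR adjusted p = 0.00612) for KO spleen cells over KO IELp and -0.22 (SE 0.07, edgeR adjusted p = 0.0109) for control IELs over control IELp. The call for control IELs was lost without control IEL replicate 1 or 2.

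Among the accessory subunits, Ndufc2, a subunit of the membrane arm, stood at 49.2, 49.2 and 43.8 CPM in KO spleen cells, 32.3, 31.7 and 31.6 in control IELs, 66.7, 67.2 and 61.4 in KO IELp and 69.4, 79.7 and 82.7 in control IELp. The control IEL libraries were lowest, the KO spleen libraries came next and the IELp libraries were highest, with no overlap between these 3 levels. The log2 fold change was -1.05 (SE 0.10, edgeR adjusted p = 3.17e-06) for control IELs over control IELp, 0.45 (SE 0.09, edgeR adjusted p = 0.00188) for KO spleen cells over control IELs and -0.34 (SE 0.08, edgeR adjusted p = 0.00447) for KO spleen cells over KO IELp. Ndufb6, another membrane arm subunit, stood at 44.9, 40.7 and 37.5 CPM in KO spleen cells, 23.3, 22.3 and 29 in control IELs, 50.7, 46.8 and 44.6 in KO IELp and 47.4, 56.9 and 59.3 in control IELp. Control IELs were lowest again, with a log2 fold change of -0.90 (SE 0.13, edgeR adjusted p = 0.000119) over control IELp. Ndufa10, a subunit of the matrix-facing side, went the other way, at 128, 133 and 133 CPM in KO spleen cells, 176, 172 and 201 in control IELs, 138, 136 and 142 in KO IELp and 125, 139.6 and 135 in control IELp. All control IEL libraries lay above all others, and the log2 fold change was 0.69 (SE 0.08, edgeR adjusted p = 2.31e-05) over control IELp and -0.60 (SE 0.07, edgeR adjusted p = 6.46e-05) for KO spleen cells over control IELs. Ndufab1, the mitochondrial acyl carrier protein, stood at 23.4 ± 4.69 CPM in KO spleen cells, 17.5 ± 0.75 in control IELs, 28.6 ± 2.01 in KO IELp and 27.7 ± 0.99 in control IELp (± SD, n = 3). Its pseudogene row Ndufab1-ps held 7.61 ± 0.63, 4.25 ± 0.496, 9.11 ± 0.342 and 8.51 ± 0.0337 CPM in the same order. This row is among the complex I members called lower in control IELs against control IELp and higher in KO spleen cells against control IELs. The near-identical copies make both rows uncertain. Ndufa7 and Ndufb9, accessory subunits, were lower in KO IELp than in control IELp, with log2 fold changes of -0.30 (SE 0.09, edgeR adjusted p = 0.0363) and -0.28 (SE 0.09, edgeR adjusted p = 0.0459). Both calls were lost when either control IELp replicate 2 or 3 or either KO IELp replicate 2 or 3 was left out, and with the length offset.

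Ndufa4 was first described as a complex I subunit and is now regarded as part of complex IV. It stood at 122, 117 and 117 CPM in KO spleen cells, 43.6, 42.5 and 56.6 in control IELs, 159, 148 and 141 in KO IELp and 128, 162 and 174 in control IELp. Control IELs were far below all other groups, KO spleen libraries were below all IELp libraries, and the 2 IELp groups overlapped. The fit put its log2 fold change at -1.47 (SE 0.14, edgeR adjusted p = 3.79e-06) for control IELs over control IELp, the largest fall among members whose higher group averaged 10 CPM or more. It was 1.20 (SE 0.11, edgeR adjusted p = 8.12e-06) for KO spleen cells over control IELs and -0.22 (SE 0.06, edgeR adjusted p = 0.0116) for KO spleen cells over KO IELp. That last call was lost without KO IELp replicate 1. Its paralog Ndufa4l2, known from hypoxic cells, stayed at or below 0.477 CPM in all libraries and was not tested.

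The Ndufaf factors help to build complex I and are not part of the finished enzyme. They did not move as a group: in control IELs against control IELp 1 was lower, 1 higher and 5 not called, with a median of 0.03. Ndufaf4 stood at 35.5, 32.1 and 34.2 CPM in KO spleen cells, 20, 16.2 and 21.3 in control IELs, 44.4, 41.2 and 43.4 in KO IELp and 35.1, 36.2 and 33.9 in control IELp. The KO IELp libraries were above all others and the control IEL libraries below all others. Its log2 fold change was 0.32 (SE 0.09, edgeR adjusted p = 0.0305) for KO IELp over control IELp, -0.64 (SE 0.12, edgeR adjusted p = 0.000901) for control IELs over control IELp and 0.70 (SE 0.12, edgeR adjusted p = 0.000721) for KO spleen cells over control IELs. The call between the IELp groups was lost whichever of their 6 libraries was left out. Ndufaf7, a methyltransferase of complex I assembly, stood at 40.5, 41 and 37.4 CPM in KO spleen cells, 44.2, 42.8 and 52 in control IELs, 56.7, 54.5 and 56.5 in KO IELp and 56.6, 54.4 and 49 in control IELp. The KO spleen libraries were below all others, with log2 fold changes of -0.38 (SE 0.08, edgeR adjusted p = 0.00182) over KO IELp and -0.35 (SE 0.10, edgeR adjusted p = 0.015) over control IELs. The difference from control IELs was not called without control IEL replicate 3 or KO spleen replicate 3. Ndufaf3 and Ndufaf5, which act in early assembly, were lower in KO spleen cells than in control IELs, with log2 fold changes of -0.50 (SE 0.18, edgeR adjusted p = 0.0316) and -0.48 (SE 0.17, edgeR adjusted p = 0.0307). Without KO spleen replicate 1, where Ndufaf3 was lowest, its log2 fold change was -0.30 and not called, and it was also not called without control IEL replicate 1 or 2. Ndufaf5 was not called in 6 of 15 alternatives, among them those without control IEL replicate 1 or 3 or KO spleen replicate 2 or 3. Ndufaf3 shares exon bases with Impdh2 on the opposite strand, and the sources used here do not give the strand setting of the counting.

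Complex II, succinate dehydrogenase, also works in the tricarboxylic acid cycle. Its 4 genes did not move together. Sdha, the flavin-carrying catalytic subunit, stood at 589.9, 609.7 and 560.4 CPM in KO spleen cells, 556, 539 and 601 in control IELs, 522, 559.7 and 543 in KO IELp and 541, 568 and 551 in control IELp. Control IEL and control IELp libraries overlapped on the CPM scale, and the KO spleen libraries lay just above those of KO IELp. After TMM scaling the log2 fold change was 0.26 (SE 0.06, edgeR adjusted p = 0.00309) for control IELs over control IELp and 0.23 (SE 0.05, edgeR adjusted p = 0.0013) for KO spleen cells over KO IELp. On unscaled CPM the control IEL difference of Sdha was 0.03 and did not pass the test. Sdhb, the iron-sulfur subunit, stood at 162, 166 and 160.4 CPM in KO spleen cells, 131, 120.3 and 135 in control IELs, 208, 194 and 191 in KO IELp and 201, 208 and 220.4 in control IELp. Its control IEL libraries were lowest, the KO spleen libraries next and the IELp libraries highest. The log2 fold change was -0.47 (SE 0.07, edgeR adjusted p = 0.000181) for control IELs over control IELp and 0.22 (SE 0.07, edgeR adjusted p = 0.019) for KO spleen cells over control IELs. The call for KO spleen cells was lost without control IEL replicate 1 or 2 or KO spleen replicate 1 or 2. Sdhd, a membrane anchor, stood at 128, 125 and 141 CPM in KO spleen cells, 119.5, 110.1 and 120.3 in control IELs, 169.9, 166 and 165 in KO IELp and 185, 171 and 207 in control IELp. The fit put its log2 fold change at -0.46 (SE 0.08, edgeR adjusted p = 0.000608) for control IELs over control IELp and -0.24 (SE 0.06, edgeR adjusted p = 0.00508) for KO spleen cells over KO IELp, so both CD8αα groups were below their precursors. Sdhc, the other anchor, stood at 68.6, 66.9 and 63.8 CPM in KO spleen cells, 62.5, 59.7 and 72.3 in control IELs, 78.8, 68.2 and 66.9 in KO IELp and 66.7, 76.7 and 87.3 in control IELp. The groups overlapped and no comparison called it.

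Complex III passes electrons from ubiquinol to cytochrome c. In control IELs against control IELp its median, -0.64, was the lowest of the 5 complexes. Uqcr10, a small subunit, stood at 41.2, 42.1 and 37.4 CPM in KO spleen cells, 24.9, 23.7 and 28.2 in control IELs, 57.7, 54.5 and 51.5 in KO IELp and 52.3, 66.4 and 73.6 in control IELp. Control IELs were lowest and KO spleen libraries lay below every IELp library. Its log2 fold change was -1.09 (SE 0.13, edgeR adjusted p = 3.51e-05) for control IELs over control IELp, 0.53 (SE 0.11, edgeR adjusted p = 0.00166) for KO spleen cells over control IELs and -0.32 (SE 0.09, edgeR adjusted p = 0.0083) for KO spleen cells over KO IELp. Uqcrh, the hinge protein whose promoter is shown above, stood at 67, 63.2 and 66.6 CPM in KO spleen cells, 39.4, 42 and 42.1 in control IELs, 77.5, 68.3 and 70.5 in KO IELp and 74.4, 84.2 and 85.2 in control IELp. The control IEL libraries were far below all others, with log2 fold changes of -0.75 (SE 0.09, edgeR adjusted p = 2.64e-05) for control IELs over control IELp and 0.55 (SE 0.08, edgeR adjusted p = 0.000228) for KO spleen cells over control IELs. Uqcrfs1, the Rieske iron-sulfur protein, averaged 94.9 ± 2.63 CPM in KO spleen cells, 61.4 ± 2.13 in control IELs, 99.6 ± 0.884 in KO IELp and 112 ± 9.4 CPM in control IELp (SD, n = 3). Its control IEL libraries were again the lowest, with log2 fold changes of -0.64 (SE 0.08, edgeR adjusted p = 6.4e-05) over control IELp and 0.51 (SE 0.07, edgeR adjusted p = 0.000171) for KO spleen cells over control IELs. Uqcrc1, a core protein of the matrix side, differed less, at 333 ± 25.1 CPM in control IELs against 496 ± 42.5 CPM in control IELp (SD, n = 3), a log2 fold change of -0.34 (SE 0.08, edgeR adjusted p = 0.00294).

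Of the complex III assembly factors, Uqcc2 and Uqcc3 were lower in control IELs than in their control precursors, with log2 fold changes of -0.71 (SE 0.14, edgeR adjusted p = 0.00106) and -0.38 (SE 0.13, edgeR adjusted p = 0.0227). With the length offset Uqcc2 was at -0.44 and still called, while Uqcc3 was at -0.10 and not called, and Uqcc3 was also not called without control IELp replicate 3 or control IEL replicate 1 or 2. Uqcc1, the partner of Uqcc2, gave 0.22 (SE 0.09, edgeR adjusted p = 0.0645) in that comparison and was lower in KO spleen cells than in control IELs, with a log2 fold change of -0.30 (SE 0.09, edgeR adjusted p = 0.018). This call was lost without control IEL replicate 3 or KO spleen replicate 1 or 2. Cyc1, the cytochrome c1 subunit of complex III, is outside the symbol rule. It stood at 140.2 ± 8.62 CPM in control IELs against 191 ± 12.4 CPM in control IELp, with a log2 fold change of -0.21 (SE 0.08, edgeR adjusted p = 0.0295).

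**Figure D3:**
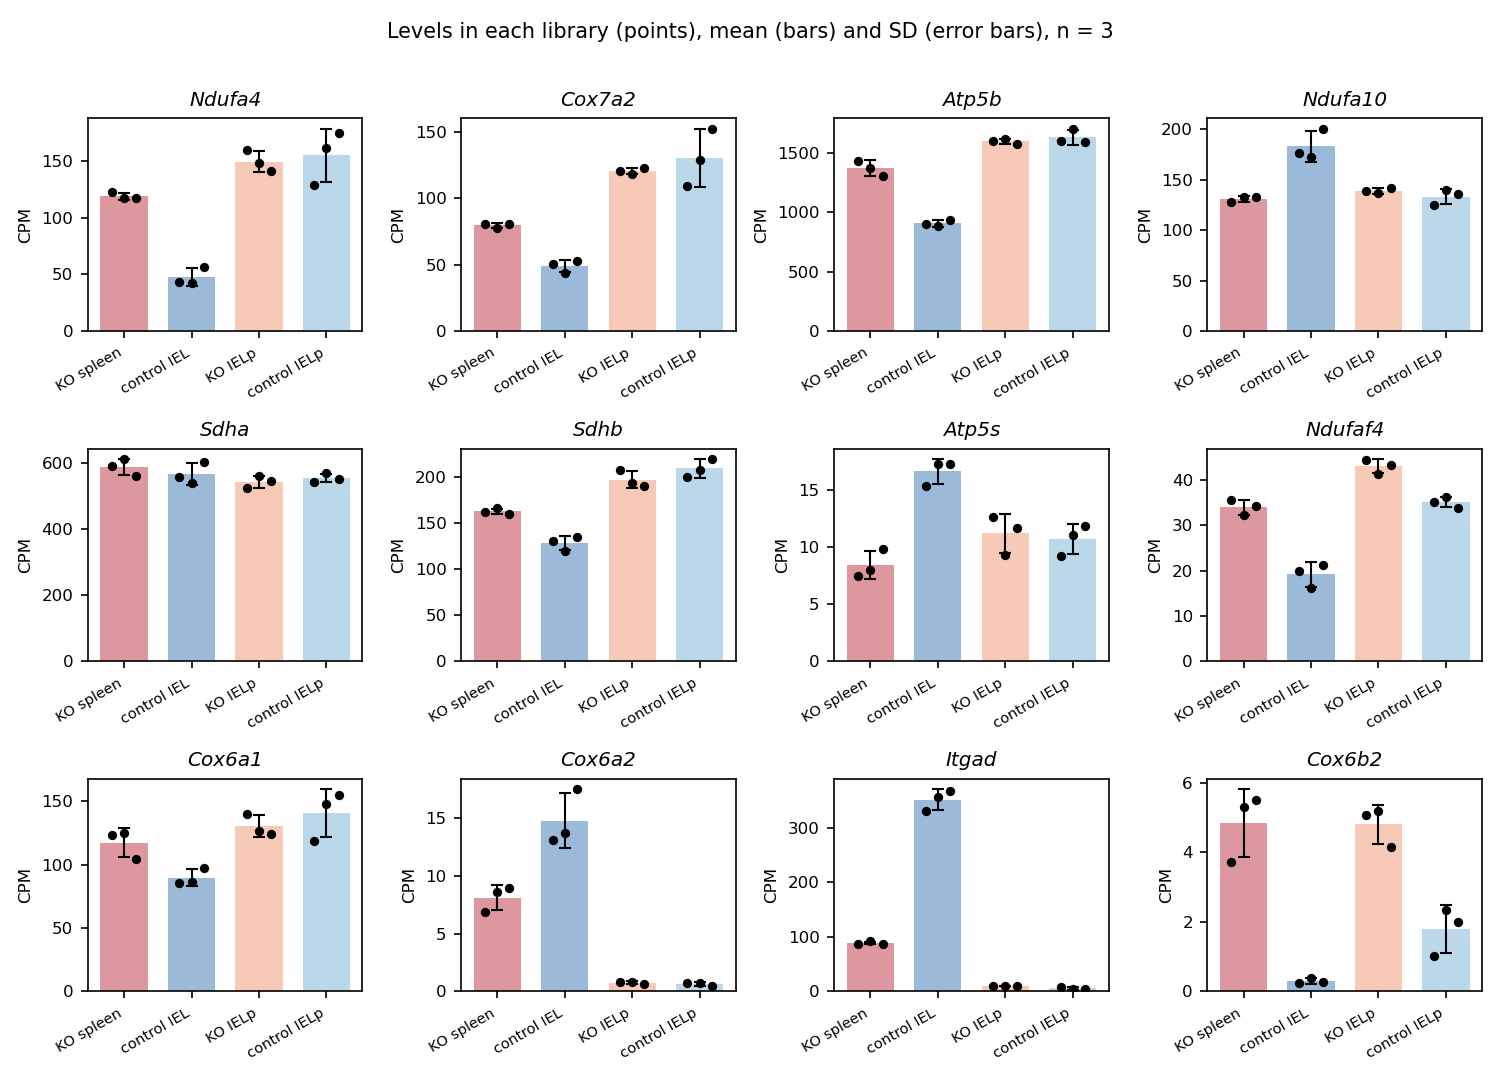
CPM (y axis, from 0) of 11 members and of Itgad in each library (points), with the mean (bars) and SD (error bars) of 3 libraries per group (x axis). Ndufa4, Cox7a2 and Atp5b are lowest in control IELs, Ndufa10 and Atp5s are highest there, Sdha is level, and Cox6a2 and Itgad are both high in control IELs and intermediate in KO spleen cells.

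Complex IV reduces oxygen to water and has several subunits with tissue-specific isoforms. Cox4i1, the common form of its largest nuclear subunit, stood at 182, 181 and 176 CPM in KO spleen cells, 140.3, 135 and 139.7 in control IELs, 194, 192 and 187 in KO IELp and 194, 227 and 237 in control IELp. Control IELs were lowest, and the log2 fold change was -0.43 (SE 0.08, edgeR adjusted p = 0.000764) over control IELp and 0.26 (SE 0.06, edgeR adjusted p = 0.00436) for KO spleen cells over control IELs. Cox7a2, the form of subunit VIIa found in most tissues, stood at 80.4, 77.6 and 81 CPM in KO spleen cells, 50.9, 43.9 and 52.5 in control IELs, 120.4, 118 and 123 in KO IELp and 109, 129 and 153 in control IELp. The control IEL, KO spleen and IELp libraries formed 3 levels without overlap. The fit put its log2 fold change at -1.18 (SE 0.12, edgeR adjusted p = 9.75e-06) for control IELs over control IELp, 0.58 (SE 0.09, edgeR adjusted p = 0.00029) for KO spleen cells over control IELs and -0.49 (SE 0.06, edgeR adjusted p = 2.49e-05) for KO spleen cells over KO IELp. Cox7a2l, which helps complexes III and IV to join into supercomplexes, stood at 66.1, 72.9 and 73.3 CPM in KO spleen cells, 39.8, 38.8 and 36.5 in control IELs, 84.1, 89.8 and 85.6 in KO IELp and 82.7, 82.6 and 88.2 in control IELp. Its order was the same, with log2 fold changes of -0.91 (SE 0.08, edgeR adjusted p = 3.45e-06) for control IELs over control IELp and 0.76 (SE 0.08, edgeR adjusted p = 3.39e-05) for KO spleen cells over control IELs. Cox5a gave -0.62 (SE 0.10, edgeR adjusted p = 0.000337) and Cox6b1 -0.73 (SE 0.10, edgeR adjusted p = 7.2e-05) for control IELs over control IELp.

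Cox5b and Cox8a were called in no comparison. For control IELs over control IELp their log2 fold changes were 0.04 (SE 0.14, edgeR adjusted p = 0.813) and -0.04 (SE 0.10, edgeR adjusted p = 0.721). With an offset for transcript length Cox8a passed the test in the opposite direction, at 0.29. Cox7c, a small subunit, stood at 9.98, 9.16 and 7.44 CPM in KO spleen cells, 13.5, 14.7 and 12.3 in control IELs, 13.3, 10.2 and 12.9 in KO IELp and 9.35, 11.5 and 10.5 in control IELp. Its control IEL libraries overlapped those of KO IELp, and the log2 fold change was 0.60 (SE 0.15, edgeR adjusted p = 0.00508) over control IELp and -0.72 (SE 0.16, edgeR adjusted p = 0.00344) for KO spleen cells over control IELs. On unscaled CPM the difference from control IELp was 0.34 and not called. Cox7c, Ndufb4, Atp5l and Atp5g2 stood at 14.7 CPM or below in every library, and the part of uncounted multiply mapping reads in these low values was not tested.

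The isoforms of complex IV known from other tissues were mostly silent. Cox4i2, Cox7b2, Cox8b and Cox8c had no counts in any of the 12 libraries, where 3 counts in a library correspond to between 0.150 and 0.223 CPM. Cox7a1, a heart and muscle form, stayed at or below 0.652 CPM and was not tested. Cox6b2, the testis form of subunit VIb, was measured at 3.71, 5.3 and 5.51 CPM in KO spleen cells, 0.246, 0.386 and 0.272 in control IELs, 5.08, 5.18 and 4.17 in KO IELp and 1.02, 2.35 and 1.99 in control IELp. All KO libraries were above all control libraries of this gene, and control IELs were the lowest group. Its log2 fold change was 1.43 (SE 0.29, edgeR adjusted p = 0.00437) for KO IELp over control IELp, -2.33 (SE 0.48, edgeR adjusted p = 0.00147) for control IELs over control IELp, 3.86 (SE 0.37, edgeR adjusted p = 1.04e-05) for KO spleen cells over control IELs and 0.12 (SE 0.22, edgeR adjusted p = 0.711) for KO spleen cells over KO IELp. The difference between the KO and the control step was 2.42 (SE 0.50, edgeR adjusted p = 0.000797). Per exon length, Cox6b2 made up 2.71 ± 0.780% of the sum of Cox6b1 and Cox6b2 in KO spleen cells, 0.266 ± 0.0892% in control IELs, 2.34 ± 0.162% in KO IELp and 0.780 ± 0.243% in control IELp (SD, n = 3), so Cox6b1 supplied nearly all of this subunit's transcripts in each group. Cox6b2 lies at chr7:4751792-4753094 on the minus strand of mm10.

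Cox6a2, the heart and muscle form of subunit VIa, was measured at 6.87, 8.58 and 8.93 CPM in KO spleen cells, 13.1, 13.8 and 17.5 in control IELs, 0.858, 0.783 and 0.633 in KO IELp and 0.751, 0.764 and 0.442 in control IELp. Control IELs were above KO spleen cells and both were above all IELp libraries. The fit put its log2 fold change at 4.70 (SE 0.25, edgeR adjusted p = 5.02e-08) for control IELs over control IELp, 3.53 (SE 0.26, edgeR adjusted p = 1.49e-07) for KO spleen cells over KO IELp and -0.99 (SE 0.17, edgeR adjusted p = 0.000676) for KO spleen cells over control IELs. Cox6a2 (chr7:128205435-128206387, minus strand) lies within Itgad (chr7:128154376-128223816, plus strand), which encodes an integrin alpha chain, and 70 of its 680 exon bases are shared with Itgad exons. Itgad stood at 87.4, 91.9 and 87 CPM in KO spleen cells, 329.5, 357 and 367 in control IELs, 10.7, 10.5 and 10.9 in KO IELp and 9.08, 5.35 and 3.68 in control IELp, the same order of groups. Its log2 fold change was 6.09 (SE 0.21, edgeR adjusted p = 1.46e-09) for control IELs over control IELp and 3.16 (SE 0.09, edgeR adjusted p = 1.06e-11) for KO spleen cells over KO IELp. Cox6a2 counts were 9.15 ± 1.21% of Itgad counts in KO spleen cells, 4.20 ± 0.501% in control IELs, 7.09 ± 1.14% in KO IELp and 11.5 ± 3.04% in control IELp. Cox6a2 reads and Itgad reads from this stretch cannot be told apart in these counts, and the part of Itgad in the Cox6a2 values was not tested. The common form Cox6a1 was lower in control IELs than in their control precursors, with a log2 fold change of -0.42 (SE 0.10, edgeR adjusted p = 0.00492). With the offset for transcript length it was -0.10 and not called.

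Complex V makes ATP in its F1 head, which is driven by a membrane ring of c subunits. All 5 genes of the F1 head were lower in control IELs than in their control precursors and higher in KO spleen cells than in control IELs. Atp5b, the catalytic beta subunit, had the highest CPM of all members, at 1434, 1376 and 1302 CPM in KO spleen cells, 903, 881 and 934 in control IELs, 1595, 1618 and 1572 in KO IELp and 1595, 1704 and 1588 in control IELp. Control IELs were lowest, KO spleen cells next and the 2 IELp groups overlapped. The fit put its log2 fold change at -0.62 (SE 0.06, edgeR adjusted p = 2.86e-06) for control IELs over control IELp, 0.48 (SE 0.05, edgeR adjusted p = 3.97e-05) for KO spleen cells over control IELs and -0.11 (SE 0.04, edgeR adjusted p = 0.0403) for KO spleen cells over KO IELp. The last of these was not called in 8 of 15 alternatives, among them each one that left out a KO IELp library or KO spleen replicate 2 or 3, and was -0.07 without KO spleen replicate 3. Atp5a1, the alpha subunit, stood at 777, 752 and 760.0 CPM in KO spleen cells, 489.9, 482 and 510.1 in control IELs, 919, 956 and 873 in KO IELp and 897, 890.4 and 943 in control IELp. It had the same order, with log2 fold changes of -0.65 (SE 0.06, edgeR adjusted p = 2.11e-06) for control IELs over control IELp and 0.51 (SE 0.05, edgeR adjusted p = 1.44e-05) for KO spleen cells over control IELs. Atp5c1, the gamma subunit of the central shaft, was lower in KO IELp than in control IELp, at 285, 272 and 278 against 295, 332 and 335 CPM, with a log2 fold change of -0.18 (SE 0.06, edgeR adjusted p = 0.0459). This call was lost in 9 of 15 alternatives, among them every one that left out 1 library except control IELp replicate 1.

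The c subunit is encoded by Atp5g1, Atp5g2 and Atp5g3, which differ in their import sequences. Atp5g3 stood at 185, 173 and 175 CPM in KO spleen cells, 124, 127 and 132 in control IELs, 234, 225 and 222 in KO IELp and 248, 283 and 277 in control IELp. Its control IEL libraries were lowest, and every KO IELp library lay below every control IELp library. The log2 fold change was -0.85 (SE 0.07, edgeR adjusted p = 1.93e-06) for control IELs over control IELp, -0.22 (SE 0.06, edgeR adjusted p = 0.0204) for KO IELp over control IELp and -0.24 (SE 0.05, edgeR adjusted p = 0.00211) for KO spleen cells over KO IELp. The call between the IELp groups was lost without control IELp replicate 2 or KO IELp replicate 2 or 3. Atp5g1 stood at 13.7 ± 1.45 CPM in control IELs and 24.1 ± 2.77 in control IELp, a log2 fold change of -0.58 (SE 0.14, edgeR adjusted p = 0.0036). Atp5g2 stood at or below 1.96 CPM and passed no test. In the peripheral stalk, which holds the head still, Atp5j and Atp5o were lower in control IELs than in their control precursors, with log2 fold changes of -0.73 (SE 0.12, edgeR adjusted p = 0.000314) and -0.65 (SE 0.09, edgeR adjusted p = 0.000107). Atp5f1 and Atp5h gave 0.07 (SE 0.07, edgeR adjusted p = 0.435) and -0.15 (SE 0.10, edgeR adjusted p = 0.19) and were not called there. Atp5k, the small membrane subunit e, was lower in control IELs, at 7.99, 7.72 and 9.56 against 14.3, 21.3 and 23.3 CPM in control IELp, with a log2 fold change of -0.99 (SE 0.19, edgeR adjusted p = 0.00104).

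Both rows with Atp5 symbols that are not ATP synthase subunits went the other way. Atp5s stood at 7.47, 8 and 9.83 CPM in KO spleen cells, 15.4, 17.3 and 17.3 in control IELs, 12.7, 9.33 and 11.7 in KO IELp and 9.28, 11.1 and 11.9 in control IELp. The control IEL libraries were above all others, and the log2 fold change was 0.86 (SE 0.15, edgeR adjusted p = 0.000349) over control IELp and -1.11 (SE 0.15, edgeR adjusted p = 0.000124) for KO spleen cells over control IELs. Atp5sl, also called Dmac2 and known from complex I assembly, stood at 34.3, 33.3 and 30.6 CPM in KO spleen cells, 42.6, 39.4 and 34.8 in control IELs, 34.6, 36.5 and 37.5 in KO IELp and 36.6, 34.6 and 29.6 in control IELp. Its log2 fold change was 0.44 (SE 0.12, edgeR adjusted p = 0.00722) for control IELs over control IELp and -0.37 (SE 0.11, edgeR adjusted p = 0.0144) for KO spleen cells over control IELs. On unscaled CPM these were 0.21 and -0.24 and not called, and the difference of KO spleen cells from control IELs was also not called without control IEL replicate 1 or KO spleen replicate 3.

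Members were also split by the summed length of their exons. In control IELs against control IELp, the median log2 fold change was -0.57 for the 39 tested members with under 1500 bp of exon and -0.33 for the 50 longer ones. Over all tested genes the same medians were -0.27 and 0.04, so the members' medians were the lower ones in both classes. In KO spleen cells against control IELs the members' medians were 0.31 and 0.23, against 0.21 and -0.04 over all genes. With an offset for transcript length the members' counts were 49 lower and 10 higher in control IELs against control IELp, and 33 higher and 11 lower in KO spleen cells against control IELs. Of all genes tested with this offset, 32.6% were lower and 32.3% higher in the first, and 29.3% higher and 29.1% lower in the second. Each of Ndufc2 and Uqcr10 kept its call in KO spleen cells against control IELs with this offset, at 0.24 and 0.27, values over 1.5 times smaller than without it. Members with under 1500 bp took 0.259%, 0.244% and 0.239% of gene counts in KO IELp and 0.238%, 0.274% and 0.302% in control IELp, so the control IELp replicates differed more among themselves than the KO IELp replicates did.

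**Figure D4:**
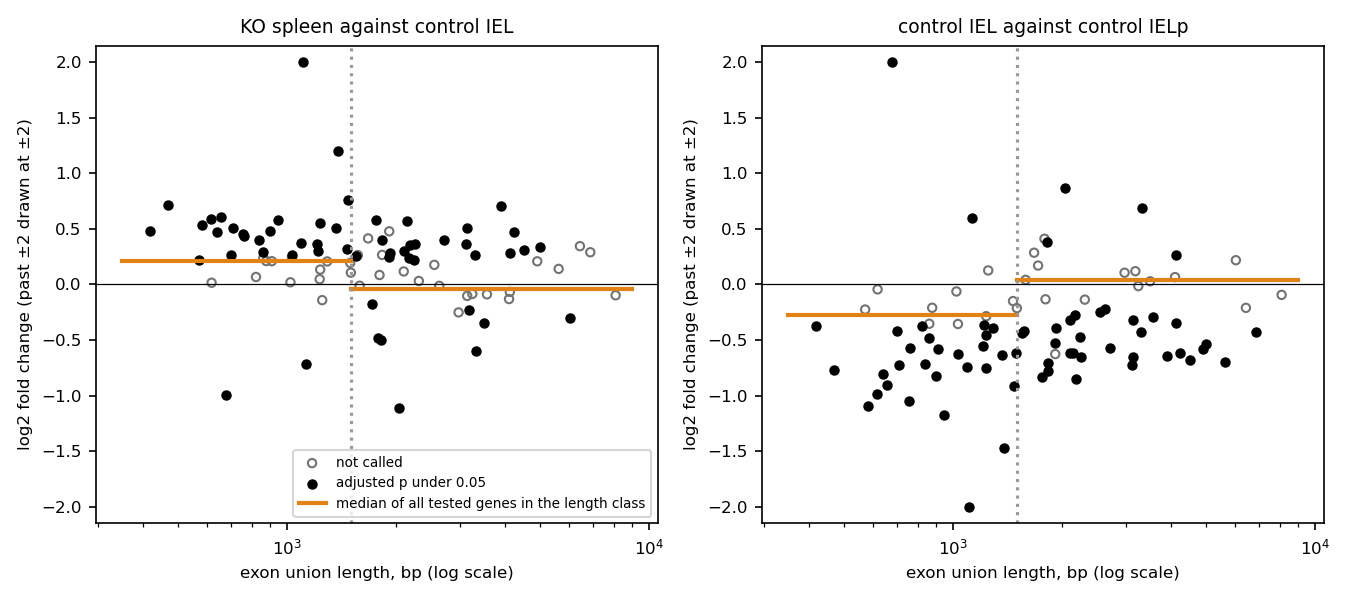
Log2 fold change (y axis, edgeR; past ±2 drawn at ±2) of each tested member with an annotated length against its exon length (x axis, log scale), for KO spleen cells over control IELs and for control IELs over control IELp. Filled points passed an adjusted p of 0.05 and orange lines are the medians of all tested genes under and from 1500 bp. In control IELs over control IELp the members' medians of -0.57 and -0.33 lie below the lines at -0.27 and 0.04.

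Other mitochondrial lists varied in how far they moved. In control IELs against control IELp, 44 of 76 mitochondrial ribosomal protein genes were lower and 5 higher, with a median of -0.36, beside 32.9% lower and 31.9% higher over all genes tested. There 9 of 17 tricarboxylic acid cycle genes were lower and 1 higher, with a median of -0.19. Of 47 other assembly factors and electron carriers, 17 were lower (36.2%) and 10 higher (21.3%), with a median of -0.10. Of 13 coenzyme Q synthesis genes, 3 were lower (23.1%) and 4 higher (30.8%), so neither list was far from the background in its lower calls. Of 20 genes that control mitochondrial gene expression 9 were lower (45%) and 2 higher (10%). Of 10 tested genes of the mitochondrial genome, 8 were lower and 0 higher. Outside mitochondria, 73 of 97 cytosolic ribosomal protein genes were lower and 5 higher, with a median of -1.10, and 30 of 30 proliferation genes were lower, with a median of -2.32. In KO spleen cells against control IELs, where 29.1% of all genes were higher and 29.2% lower, 33 of 76 mitochondrial ribosomal protein genes were higher and 8 lower, 71 of 97 cytosolic ones were higher and 6 lower, 10 of 10 mitochondrial genome genes were higher, and 21 of 30 proliferation genes were higher and 1 lower. In KO spleen cells against KO IELp, where 22.6% of all genes were higher and 22.4% lower, 30 of 30 proliferation genes were lower, with a median of -1.32, and 7 of 10 mitochondrial genome genes were higher, while 15 of 91 members were lower and 4 higher. In KO IELp against control IELp, 19 of 30 proliferation genes were lower (63.3%, beside 6.58% of all genes), while 3 of 76 mitochondrial ribosomal protein genes (3.95%) and 1 of 17 tricarboxylic acid cycle genes (5.88%) were. The part of cell division in the members' values was not tested.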

How the data were processed

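RNA came from 40000 sorted cells per sample, cDNA was made with a SMARTer Ultra Low Input kit, and Nextera XT libraries were read as 76 bp pairs, per the labels' protocols. The submitters' processing notes name bcl2fastq 2.17, Trimmomatic, STAR, HTSeq, DESeq2 and mm10. Neither annotation nor strand setting is given in the sources used here. The authors deposited whole-number counts per gene symbol (48663 gene rows, plus 5 rows of unassigned reads that were left out) and FPM values, which equal CPM of the gene rows. The depth was between 13432598 and 19947734 gene counts per library, and floors of 3 counts cover counting error only.

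Each comparison used the deposited counts of its 6 libraries with edgeR 4.0.16 (R 4.3.3), 2-sided quasi-likelihood test, with TMM scaling, filterByExpr and Benjamini-Hochberg adjustment over all tested genes at 0.05. The difference between steps used all 12 libraries. SE is the log2 fold change divided by the root of its F value. All fits were run on the whole table and were also tested on simulated data. Exon lengths, positions and overlaps came from GENCODE M21 (GRCm38, the same assembly as mm10), which held 101 of 102 members (not Atp5sl). Alternatives were median-of-ratios scaling, DESeq2 1.42.0, no filter, a replicate block, 1 fit of 12 libraries, limma 3.58.1 on log2 of the deposited CPM plus 1 or 0.1, offsets for transcript length or GC, and each library left out. A count of members without exon overlap or -ps symbol was added after seeing the data.

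The members and lists were chosen with earlier results of these data known. Genes were named by smallest adjusted p per complex (up to 3 whose higher group averaged 10 CPM or more) and from a fixed list of core subunits and isoforms, and other members were added where a group or an exception is described. Cyc1 and Itgad were named for their link to members. Results for some single genes are not reported here.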

Additional observations from a re-analysis of the deposited data

Results flagged for a closer look

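The KO step (KO spleen cells over KO IELp) and the control step (control IELs over control IELp) differed by a test of the difference itself for 45 members in the positive direction and 7 in the negative direction (edgeR interaction, adjusted p under 0.05). The KO step ends in spleen and the control step in gut, so genotype and tissue cannot be told apart.

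In complex I and its factors the difference in log2 fold change was 1.23 for Ndufa4, 0.70 for Ndufv2, 0.39 for Ndufaf4, -0.68 for Ndufa10 and -0.44 for Ndufaf7. In complexes II and III it was 0.28 for Sdhb, 0.74 for Uqcr10, 0.70 for Uqcrh, 0.66 for Uqcrfs1 and 0.37 for Uqcrc1. In complex IV it was 2.42 for Cox6b2, 0.71 for Cox7a2l, 0.67 for Cox7a2, 0.64 for Cox6b1, 0.43 for Cox4i1, 0.36 for Cox6a1 and -1.20 for Cox6a2, whose exons overlap Itgad. The Cox6a1 difference was not called in 12 of 20 alternatives and was 0.07 with the length offset, and the Ndufaf4 difference was also not called in 12 of 20. The Sdhb difference was not called without KO IELp replicate 3 or control IEL replicate 2. In complex V it was 0.58 for Atp5g3, 0.48 for Atp5a1 and 0.48 for Atp5b. No group had the 4 samples that a check for single outlying libraries needs.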

How the results depend on the processing

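Of the members called in the comparison as reported, the number kept under every alternative was 1 of 6 for KO IELp against control IELp, 47 of 65 for control IELs against control IELp, 32 of 56 for KO spleen cells against control IELs, 12 of 19 for KO spleen cells against KO IELp and 29 of 52 for the difference between steps. With the replicate block, KO IELp against control IELp gave 1 member higher and 1 lower, and 1 fit of all 12 libraries gave 1 higher and 2 lower. An offset for length gave 1 lower there, and one for GC gave 2 lower. Leaving out 1 library at a time gave 1 higher and between 0 and 9 lower. Of all genes tested, between 3.96% and 5.82% were then higher and between 4.27% and 6.25% lower. At an unadjusted p under 0.05 in KO IELp against control IELp, 2 of 91 members were higher and 12 lower. Of all 14629 genes tested, 1856 were higher and 1908 lower at that threshold. Limma on unscaled CPM, with 1 or 0.1 added, gave 3 higher for control IELs against control IELp, 4 lower for KO spleen cells against control IELs, 2 higher and 35 lower for KO spleen cells against KO IELp, and 4 negative for the difference between steps. With 1 added, the shares over all genes were, in the same order, 23.4% higher, 24.5% lower, 17.3% higher and 31.1% lower, and 19.1% negative. Counting only members without exon overlap or -ps symbol, control IELs against control IELp gave 38 lower and 4 higher of 57 tested. Over all 90 tested members the counts were 58 lower and 7 higher. With 1 library left out, KO spleen cells against control IELs gave 6 to 9 lower, and KO spleen cells against KO IELp gave 2 to 5 higher. With the length offset the sign of a called value turned for Ndufa1 in control IELs against control IELp (0.02, against -0.37 without it) and for Ndufa2 in KO spleen cells against control IELs (-0.05, against 0.22), and neither was called there. Of the members not called as reported, Cox8a passed the test in the other direction: with the length offset Cox8a was 0.29 in control IELs against control IELp and -0.24 in KO spleen cells against control IELs, against -0.04 and 0.02 without it, and the cause was not tested. Deviations from the group means over all genes were hardly correlated between same-numbered replicates (correlations between -0.03 and 0.06). Differently numbered libraries were not compared, so this cannot show whether the samples were paired. The block is given here only. Depth limits what can be said of members at a few CPM or less, such as Cox6b2 in control IELs and Atp5g2.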
